A study of Mus musculus with 4 samples.

Results

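The genes described here are the receptors for type I and type II interferon, the STAT and IRF factors that act below them, and genes that interferon induces. They were taken as a fixed list of 45 gene symbols, chosen by name and function, out of 23450 genes listed per library. Of the 45, 44 were matched, 43 passed a filter on low values (at least 1 CPM in at least 2 libraries), and Ifi27 was not analysed here. CPM are reads per 1000000 reads of a library. Transcripts were measured by RNA sequencing in mouse hematopoietic stem cells sorted from bone marrow, with 2000 cells per library. There were 2 libraries of long-term stem cells (LT-HSC), sorted as CD48-, CD150+, CD34- and CD9high, where CD9 is a surface tetraspanin. The other 2 libraries held short-term stem cells (ST-HSC), taken from the CD48-, CD150+ and CD9low cells, with no CD34 gate given. Both groups therefore shared the CD48 and CD150 gates, and no treatment or genetic change is named for either. The sources used here give no strain, no age and no word on pooling of animals. The comparison asked how the CD34- and CD9-high cells differ from the CD9-low cells. The groups thus differ in the CD9 gate and in the CD34 gate as given, and the parts of these gates cannot be told apart.

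Type I interferons bind a receptor built from IFNAR1 and IFNAR2, and interferon gamma binds one built from IFNGR1 and IFNGR2. Janus kinases on these receptors phosphorylate STAT proteins. A complex of STAT proteins with IRF9 binds the interferon-stimulated response element (ISRE), and STAT dimers, which carry the interferon gamma signal, bind the gamma-activated sequence (GAS). The genes switched on in this way block viral entry, translation and replication, mark vacuoles that hold pathogens, or sense foreign RNA. In bone marrow, interferon can drive resting stem cells into division, and stem cells are known to hold part of this program without infection.

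The elements can be read in the promoters of the members themselves. The 250 bases before the transcript start were searched on both strands for the ISRE core GAAANNGAAA and for the GAS core TTCNNNGAA in the RefSeq promoter table (GRCm38.p6), which held 33 of the 45 members. An ISRE core was present in 14 of the 33 (42.4%), in 13 of 57 other interferon pathway genes (22.8%) and in 517 of 15191 listed genes with a promoter entry (3.40%). A GAS core was present in 8 of the 33 members (24.2%), in 11 of the 57 (19.3%) and in 1186 of the 15191 (7.81%). Both cores were found in 4 members, Bst2, Igtp, Irgm2 and Oas1a, and overlapped each other in 1, Bst2. A match of letters describes the sequence and is not evidence of a bound factor. The 7 windows printed here cover the 120 bases before the start, 5′ to 3′ on the gene's strand, with matches in capitals. They were chosen to show ISRE cores in tandem, ISRE and GAS cores side by side, and a GAS core alone.
Isg15, chr4:156200819-156200938, - strand: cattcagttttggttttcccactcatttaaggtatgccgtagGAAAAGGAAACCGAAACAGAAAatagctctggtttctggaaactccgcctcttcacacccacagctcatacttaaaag
Ifit1, chr19:34640769-34640888, + strand: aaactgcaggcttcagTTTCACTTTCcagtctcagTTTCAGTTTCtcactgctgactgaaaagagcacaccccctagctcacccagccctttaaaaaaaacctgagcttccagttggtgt
Oas1a, chr5:120907526-120907645, - strand: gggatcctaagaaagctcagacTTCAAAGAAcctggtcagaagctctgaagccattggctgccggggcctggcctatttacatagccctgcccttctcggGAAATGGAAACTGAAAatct
Irgm1, chr11:48871421-48871540, - strand: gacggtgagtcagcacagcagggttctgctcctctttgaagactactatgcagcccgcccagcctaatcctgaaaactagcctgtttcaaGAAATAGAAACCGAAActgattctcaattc
Igtp, chr11:58199436-58199555, + strand: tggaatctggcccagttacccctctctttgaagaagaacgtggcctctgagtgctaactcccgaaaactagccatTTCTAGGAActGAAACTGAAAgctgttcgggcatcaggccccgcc
Irgm2, chr11:58214857-58214976, + strand: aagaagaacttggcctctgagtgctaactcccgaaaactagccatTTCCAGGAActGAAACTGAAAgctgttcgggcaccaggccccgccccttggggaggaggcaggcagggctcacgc
Irf1, chr11:53769894-53770013, + strand: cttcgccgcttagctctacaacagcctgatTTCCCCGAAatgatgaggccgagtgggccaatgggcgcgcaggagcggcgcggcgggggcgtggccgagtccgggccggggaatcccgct
In Isg15 3 ISRE matches overlap in 1 stretch from 78 to 57 bases before the start, and in Ifit1 2 matches on the opposite strand stand apart. Irgm1 and Oas1a each hold 2 overlapping ISRE matches close to the start. Igtp and Irgm2, which encode related GTPases, both have a GAS core followed after 2 bases by an ISRE core, and their windows share an identical run of 38 bases. Of the windows printed, only for Irgm2 were the bases after the start not found in the searched part of a GENCODE vM21 transcript of that gene. The start used for Irgm2 is therefore less certain. That search reached far into each transcript, so a match does not show that the other starts are exact. Irf1 holds a GAS core, 82 to 90 bases before the start, without an ISRE core. Of the 32 tested members with a promoter entry, the 13 with an ISRE core had a median log2 fold change between LT-HSC and ST-HSC of 0.30, and the 19 without had 0.25. For the GAS core the medians were 0.03 for the 8 members with it and 0.31 for the 24 without. Over all tested genes with an entry the medians with and without were -0.01 and -0.02 for the ISRE core and 0.01 and -0.02 for the GAS core.

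No interferon gene passed the test between LT-HSC and ST-HSC, and neither did any other gene. Of 12569 genes tested with limma, 0 were called at an adjusted p under 0.05 (0% of tested genes), 814 had an unadjusted p under 0.05 (6.48%), and limma-voom gave 0 and 626. Of the 43 tested members, 0 were called, the smallest limma adjusted p being 0.750 for Ifi44, and 3 had an unadjusted p under 0.05, namely Oasl1, Ifi44 and Parp9. All 3 had the higher values in LT-HSC and 0 members the lower ones, against 2.87% of all tested genes with such a p and higher values and 3.6% with such a p and lower values. The direction among members leaned to LT-HSC. The LT-HSC values were both above the ST-HSC values, without overlap, for 12 members (27.9%), against 16.2% of all tested genes, and both below them for 2 members (4.65%), against 17.5%. The log2 fold change, where a positive value means higher in LT-HSC, was above 0 for 31 members and below 0 for 12, and above 0 for 49.2% of all tested genes. Its median over the members was 0.29, against -0.01 over all tested genes. Without LT-HSC 1 the members' median was 0.48, and without LT-HSC 2 it was 0.22. These are descriptions of a list chosen with earlier results of these data known, and with 2 libraries per group an exact permutation test of a single value cannot give a p under 0.333. The labels do not state whether the libraries came from separate animals, so each p-value reflects library-to-library spread, and this can be technical.

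**Figure D1:**
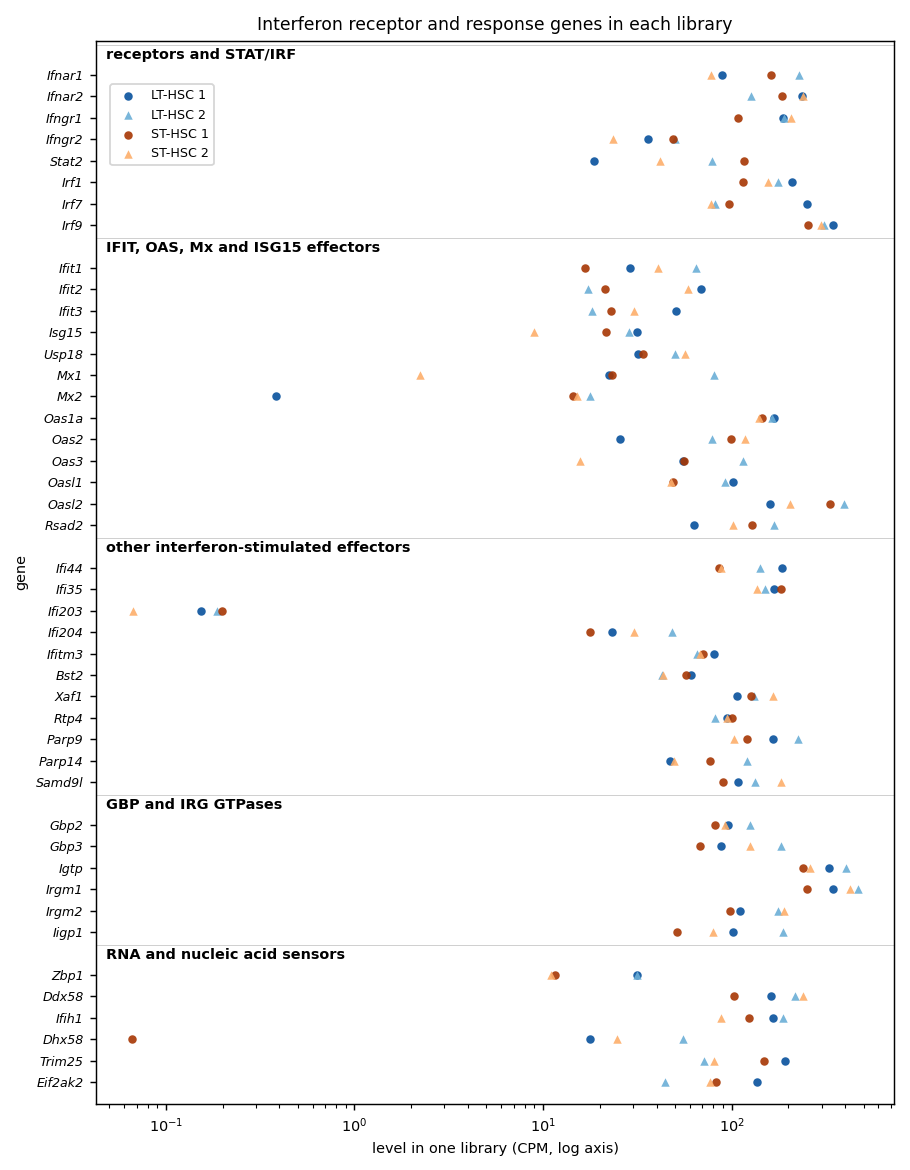
Level of each of the 44 matched genes in the 4 libraries, in CPM on a log axis, with genes in rows by role. Blue symbols are LT-HSC and orange symbols ST-HSC, circles are libraries numbered 1 and triangles libraries numbered 2. The blue pair lies to the right of the orange pair in Oasl1, Ifi44 and Zbp1, while the pairs interleave in most rows, as in Ifnar1 and Ifit2.

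The libraries had authors' totals of 13077365 to 16156021 reads, so that 3 reads, taken as the floor of detection, equal 0.186 to 0.229 CPM. This floor speaks of counting error alone, because copies made by amplification are not separate molecules. Of 13 genes that mark or gate stem cells, all but Cd48 had more than 3 reads in every library, and they summed to 4116 and 4368 CPM in LT-HSC and 3357 and 3755 CPM in ST-HSC. Cd48, whose protein both sorts exclude, held 247 and 575 reads in ST-HSC and 2 reads in both LT-HSC libraries. Cell cycle genes (S phase and G2/M) summed to 1398 and 1450 CPM in LT-HSC and 2393 and 3004 CPM in ST-HSC. Megakaryocyte genes summed to 418 and 525 CPM in LT-HSC and 340.1 and 201 CPM in ST-HSC. The higher sum in LT-HSC rested on Vwf, at 304 and 380 CPM in LT-HSC and 45.3 and 9.17 CPM in ST-HSC. Itga2b went the other way, at 2.45 and 5.01 CPM in LT-HSC and 152 and 105 CPM in ST-HSC. Pf4 and Gp9 were also lower in both LT-HSC libraries, and Gp1ba and Ppbp overlapped. Erythroid genes summed to 290.2 and 206 CPM in LT-HSC and 343 and 305 CPM in ST-HSC. Neutrophil genes summed to 329 CPM in ST-HSC 1 and 51.7 to 55.9 CPM in the other libraries, with 7 of 8 above the floor in ST-HSC 1 and 4 or 5 in the others. Monocyte and macrophage genes summed to 250 and 228 CPM in LT-HSC and 295 and 271 CPM in ST-HSC, with 5 to 7 of 10 above the floor. Of these, Cd14 and Ms4a7 had reads in ST-HSC and 0 in LT-HSC, Emr1 and Fcgr1 had reads in 1 LT-HSC library and 0 in ST-HSC, and Cx3cr1 had 0 in all. Of the plasmacytoid dendritic cell genes, which stood at 539 and 443 CPM in LT-HSC and 479 and 375 CPM in ST-HSC, most of the sum came from Tcf4, which other cells express too, and the list holds Bst2, itself a member here. Of the other genes on this list, Ly6d had 0 reads in every library. Siglech had 9 reads in LT-HSC 1 and 0 in the rest, and Klk1 had 4 reads in LT-HSC 2 and 0 in the rest. Ccr9 held 583 to 684 reads in every library, and Il3ra held 46 and 205 reads in LT-HSC and 86 and 33 reads in ST-HSC. The stem cell, cell cycle, megakaryocyte, erythroid, neutrophil and monocyte sums did not overlap between the groups, and the plasmacytoid, B cell and T and NK cell sums did. The part of the cell cycle and of other cell types in the interferon values was not tested. In sorted bulk cells, fewer cells that express a gene and less RNA per cell cannot be told apart.

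The receptor genes were read in all libraries and overlapped between the groups. Ifnar1, the signalling chain of the type I receptor, stood at 89.4 and 226 CPM in LT-HSC and 161 and 77.7 CPM in ST-HSC, where the libraries of a group are given in the order 1 and 2 here and below. Ifnar2, the partner chain that binds the ligand, stood at 235 and 127 CPM in LT-HSC and 184 and 239 CPM in ST-HSC. The chains did not follow each other across libraries: LT-HSC 2 had the highest Ifnar1 and the lowest Ifnar2. Ifngr1, the ligand-binding chain of the interferon gamma receptor, stood at 188 and 190.4 CPM in LT-HSC and 108 and 205 CPM in ST-HSC, and was thus low in ST-HSC 1 only. Ifngr2, its signalling chain, stood at 35.9 and 50.3 CPM in LT-HSC and 48.8 and 23.5 CPM in ST-HSC. The log2 fold changes were 0.34 ± 0.60 (SE), -0.28 ± 0.38 (SE), 0.35 ± 0.38 (SE) and 0.32 ± 0.62 (SE) for Ifnar1, Ifnar2, Ifngr1 and Ifngr2, none larger than its own error. Per kilobase of exon, using GENCODE vM21 lengths, Ifngr1 ranged over the 4 libraries from 50.9 to 97.1 CPM, Ifnar2 from 39.9 to 75.4, Ifnar1 from 19.9 to 57.9 and Ifngr2 from 6.34 to 13.6. The range of Ifngr2 lay below those of the other chains, which overlapped each other.

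The factors below the receptors split into steady and variable genes. Irf9, the DNA-binding part of the type I complex, stood at 346 and 309 CPM in LT-HSC and 253 and 297 CPM in ST-HSC, the LT-HSC pair lying just above the ST-HSC pair. Its mean was 328 ± 25.5 CPM against 275 ± 31.2 CPM (SD, n = 2 each), and its log2 fold change was 0.25 ± 0.20 (SE). Irf1, an early transcription factor of the interferon gamma response, stood at 209 and 175 CPM in LT-HSC and 114 and 155 CPM in ST-HSC, again without overlap, with a log2 fold change of 0.52 ± 0.29 (SE) and a limma adjusted p of 0.830. Irf7, the factor that amplifies type I interferon production, stood at 251 and 81.2 CPM in LT-HSC and 97.1 and 78.0 CPM in ST-HSC. Its excess in LT-HSC came from LT-HSC 1, since LT-HSC 2 fell within the ST-HSC range, and without LT-HSC 1 the log2 fold change of 0.71 became -0.10. Stat2, the partner of IRF9, stood at 18.7 and 78.9 CPM in LT-HSC and 116 and 41.9 CPM in ST-HSC, lowest in LT-HSC 1 and highest in ST-HSC 1. Its log2 fold change of -0.84 ± 0.90 (SE) changed sign to 0.17 without LT-HSC 1. For the 8 genes of this group, 2 lay above both ST-HSC libraries (25%), against 16.2% of all tested genes. Below both lay 0, against 17.5%, and 6 overlapped. The group's median log2 fold change was 0.33, which was 0.14 without ST-HSC 2.

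The effectors of the IFIT, OAS, Mx and ISG15 families, 13 genes that include the best known antiviral effectors of the type I response, varied most between the LT-HSC libraries. The median difference between these 2 libraries was 1.30 on the log2 scale for these genes, against 0.69 for all tested genes. Of the 13, 3 lay above both ST-HSC libraries (23.1%, against 16.2% of all tested genes) and 9 overlapped. Below both lay 1 (7.69%, against 17.5%). The group's median log2 fold change of 0.20 moved to 0.56 when LT-HSC 1 was left out and to 0.08 when ST-HSC 1 was. Oasl1, an OAS-like protein that lacks the synthetase activity, stood at 102 and 92.2 CPM in LT-HSC and 48.6 and 47.9 CPM in ST-HSC. Its groups were tight and apart, 97.0 ± 6.88 CPM against 48.2 ± 0.474 CPM (SD, n = 2 each). The difference was 0.99 ± 0.37 (SE) on the log2 scale, with a limma adjusted p of 0.767. Leaving out each library in turn gave 0.92 to 1.06. Isg15, the ubiquitin-like modifier, stood at 31.7 and 28.5 CPM in LT-HSC and 21.7 and 8.96 CPM in ST-HSC, with a log2 fold change of 1.05 ± 0.81 (SE), which was 0.45 without ST-HSC 2 and 1.64 without ST-HSC 1. Its pairs did not overlap, but the ST-HSC libraries differed from each other by 2.42-fold. Oas1a, an oligoadenylate synthetase, stood at 168 and 163 CPM in LT-HSC and 145 and 140.0 CPM in ST-HSC, close in all 4 libraries with the LT-HSC pair on top. Oas1a has close copies, and Oas1g stood at 152 and 186 CPM in LT-HSC and 138 and 137 CPM in ST-HSC, so how reads were divided between them is uncertain.

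Of the other members of these families, Oas2 was lower in both LT-HSC libraries and the rest overlapped. Oas2 was the 1 gene here below both ST-HSC libraries, at 25.6 and 78.5 CPM in LT-HSC and 99.2 and 118 CPM in ST-HSC, with a log2 fold change of -1.25 ± 0.62 (SE). It ranged from -2.04 to -0.46 when each library was left out, and was smallest in size without LT-HSC 1. Oas3, which encodes the largest OAS protein, went the other way at 55.2 and 115 CPM in LT-HSC and 55.7 and 15.6 CPM in ST-HSC, but LT-HSC 1 and ST-HSC 1 were almost equal. Its log2 fold change of 1.40 was 0.51 without ST-HSC 2. Oasl2 stood at 159 and 392 CPM in LT-HSC and 330.3 and 203 CPM in ST-HSC, with the library numbered 2 higher in LT-HSC and the library numbered 1 higher in ST-HSC. Mx1, an antiviral dynamin-like GTPase, stood at 22.5 and 80.5 CPM in LT-HSC and 23.1 and 2.22 CPM in ST-HSC, with a difference of 2.31 ± 1.32 (SE) on the log2 scale that rested on a high LT-HSC 2 and a low ST-HSC 2, and was 0.86 without ST-HSC 2. Mx2, its neighbouring paralog, stood at 0.382 and 17.8 CPM in LT-HSC and 14.5 and 15.2 CPM in ST-HSC, where LT-HSC 1 held only 5 reads. Without that library its log2 fold change of -1.64 became 0.25.

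The 3 IFIT genes, a family whose products bind foreign RNA, did not share 1 order of libraries. Ifit1 stood at 29.0 and 64.5 CPM in LT-HSC and 16.7 and 40.9 CPM in ST-HSC. Ifit2 stood at 68.7 and 17.3 CPM in LT-HSC and 21.2 and 58.6 CPM in ST-HSC, and its groups overlapped widely. Ifit3 stood at 50.5 and 18.2 CPM in LT-HSC and 22.8 and 30.4 CPM in ST-HSC, in the same order of libraries as Ifit2. LT-HSC 2 was the highest library for Ifit1 and the lowest for Ifit2 and Ifit3. Rsad2, which encodes viperin, stood at 63.3 and 169 CPM in LT-HSC and 128 and 102 CPM in ST-HSC. Usp18, the protease that removes ISG15 and damps the type I receptor, stood at 32.0 and 50.4 CPM in LT-HSC and 34.0 and 56.5 CPM in ST-HSC. Both overlapped, with log2 fold changes of -0.14 and -0.12.

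**Figure D2:**
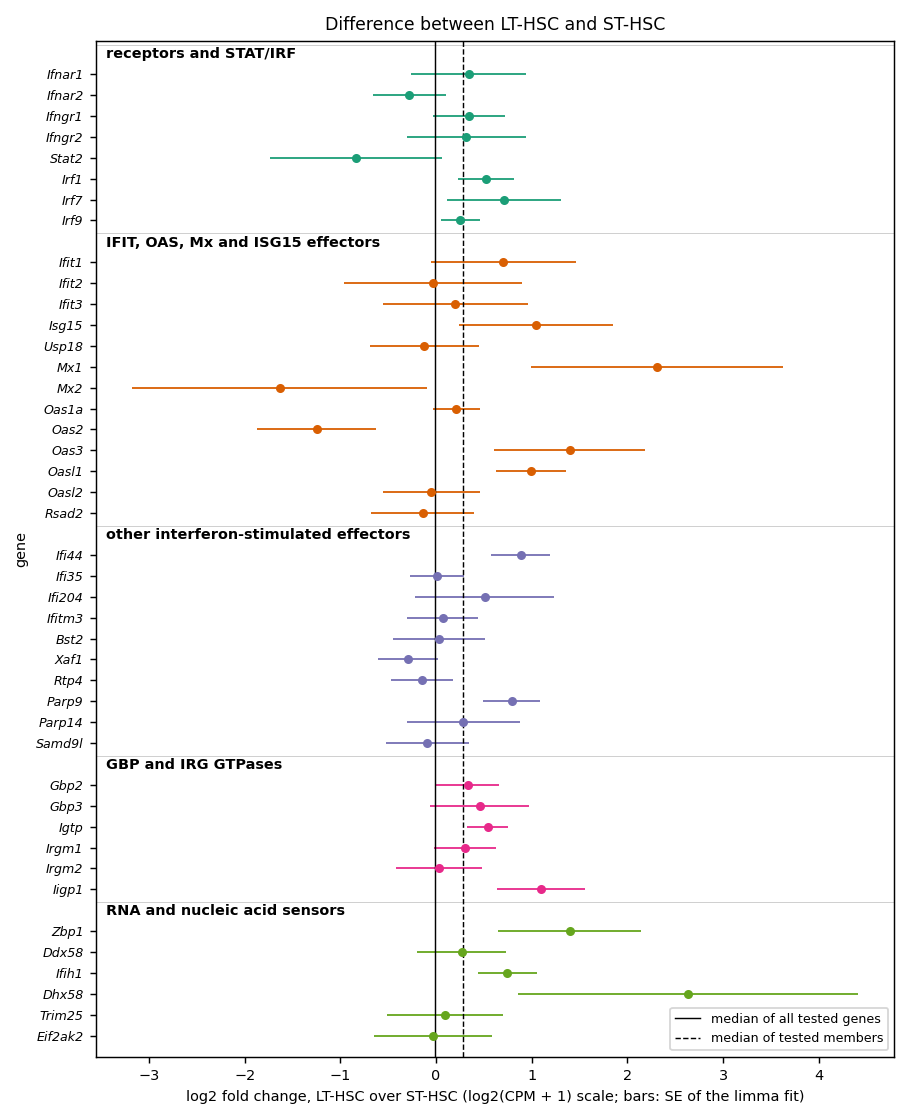
Log2 fold change of LT-HSC over ST-HSC for the 43 tested members by role, on the log2(CPM + 1) scale, with bars of 1 SE from the limma fit. The solid line is the median of all tested genes (-0.01) and the dashed line that of the members (0.29). All 6 GBP and IRG genes lie above 0, and the widest bars belong to Dhx58, Mx2 and Mx1.

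Among the remaining effectors, Ifi44 and Parp9 had the lowest p-values and most others hardly differed. Ifi44, a cytosolic antiviral protein, stood at 184 and 141 CPM in LT-HSC and 85.9 and 87.9 CPM in ST-HSC. The LT-HSC libraries lay well above a tight ST-HSC pair, 163 ± 30.9 CPM against 86.9 ± 1.45 CPM (SD, n = 2 each). The difference was 0.88 ± 0.31 (SE) on the log2 scale, with a limma adjusted p of 0.750 and values of 0.69 to 1.08 with 1 library left out. Parp9, a macrodomain protein that enhances interferon signalling, stood at 165 and 224 CPM in LT-HSC and 119.9 and 103 CPM in ST-HSC. Its log2 fold change was 0.79 ± 0.30 (SE), or 0.57 to 1.01 with 1 library left out, and its limma adjusted p was 0.767. Parp14, which lies in the same chromosomal neighbourhood and encodes a related macrodomain protein, overlapped at 47.1 and 120.0 CPM in LT-HSC and 76.6 and 49.5 CPM in ST-HSC. Rtp4 was the only gene of these 10 tested below both ST-HSC libraries, at 94.7 and 81.2 CPM in LT-HSC and 100.2 and 94.8 CPM in ST-HSC. The nearest libraries of the groups were all but equal, and the log2 fold change of -0.15 ± 0.32 (SE) was within its error. Ifitm3, which blocks viral fusion, stood at 80.2 and 65.2 CPM in LT-HSC and 70.1 and 67.8 CPM in ST-HSC. Ifitm2, a close copy beside it, stood at 82.0 and 65.9 CPM in LT-HSC and 70.8 and 67.9 CPM in ST-HSC, almost the same in each library, so the division of reads between them is uncertain. Bst2, the tetherin that holds virions at the surface, stood at 60.9 and 42.6 CPM in LT-HSC and 57.4 and 43.3 CPM in ST-HSC, with library 1 above library 2 in both groups.

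The remaining genes of this kind also overlapped. Ifi35, which encodes an interferon-induced leucine zipper protein, stood at 168 and 151 CPM in LT-HSC and 183 and 136 CPM in ST-HSC. Xaf1, a pro-apoptotic partner of XIAP, stood at 106 and 131 CPM in LT-HSC and 126 and 167 CPM in ST-HSC. Samd9l, a factor that restricts translation, stood at 109 and 133 CPM in LT-HSC and 89.9 and 183 CPM in ST-HSC, where ST-HSC 1 was lowest and ST-HSC 2 highest. Across Ifitm3, Bst2 and these 3 genes, the log2 fold changes ran from -0.29 in Xaf1 to 0.07 in Ifitm3. Ifi204, a DNA-sensing HIN-200 protein, stood at 23.2 and 48.3 CPM in LT-HSC and 17.7 and 30.5 CPM in ST-HSC. Its relative Ifi203 held 2 and 3 reads in LT-HSC and 3 and 1 reads in ST-HSC, at or under the floor of 3 reads in every library, so it was not tested and no fold is given. HIN-200 genes are close copies, and the reads of Ifi203 and Ifi204 are uncertain for that reason. The median log2 fold change of the 10 tested genes was 0.05, which moved to -0.0068 without LT-HSC 1 and to 0.18 without ST-HSC 1.

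The GBP and IRG genes encode GTPases that are strongly induced by interferon gamma and attack vacuoles holding pathogens. All 6 had a log2 fold change above 0, against 49.2% of all tested genes, with a median of 0.39. Above both ST-HSC libraries lay 3 (50%, against 16.2% of all tested genes), below both 0 (against 17.5%), and 3 overlapped. None passed the test. Iigp1, an effector GTPase of the IRG family, stood at 102 and 187 CPM in LT-HSC and 51.3 and 79.8 CPM in ST-HSC. The lower LT-HSC library was above the higher ST-HSC library, and the log2 fold change was 1.10 ± 0.46 (SE), or 0.67 to 1.53 with 1 library left out. Igtp, a regulatory IRG protein, stood at 327 and 404 CPM in LT-HSC and 239 and 261 CPM in ST-HSC, 365 ± 54.4 CPM against 250.1 ± 15.1 CPM (SD, n = 2 each), with a log2 fold change of 0.54 ± 0.21 (SE). Its LT-HSC libraries differed by 1.24-fold and its ST-HSC libraries by 1.09-fold. Gbp2 stood at 95.9 and 125 CPM in LT-HSC and 81.6 and 92.5 CPM in ST-HSC, the third gene without overlap, with a log2 fold change of 0.33 ± 0.33 (SE), or 0.14 without LT-HSC 2 and 0.52 without LT-HSC 1. Gbp3 stood at 88.3 and 182 CPM in LT-HSC and 67.9 and 125 CPM in ST-HSC. Irgm1, which encodes a regulatory IRG protein that guards the cell's own membranes, stood at 344 and 468 CPM in LT-HSC and 249.8 and 423 CPM in ST-HSC. Irgm2, a second regulator of this kind, stood at 111 and 175 CPM in LT-HSC and 97.7 and 189.8 CPM in ST-HSC. In Gbp3, Irgm1 and Irgm2 the libraries LT-HSC 2 and ST-HSC 2 were both above LT-HSC 1 and ST-HSC 1. GBP and IRG genes lie in clusters of close relatives, and how shared reads were counted is uncertain. Leaving out LT-HSC 2 or ST-HSC 1 lowered the group median to 0.11 or 0.13, and leaving out LT-HSC 1 or ST-HSC 2 raised it to 0.61 or 0.64.

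The sensors of RNA and other nucleic acids had the highest group median, 0.51 over 6 genes. Of these, 2 lay above both ST-HSC libraries (33.3%, against 16.2% of all tested genes), 0 below both (against 17.5%) and 4 overlapped. With 1 library left out this median ran from 0.44 to 0.79. Zbp1, which senses Z-form nucleic acid and can start necroptosis, stood at 31.4 and 31.4 CPM in LT-HSC and 11.6 and 11.1 CPM in ST-HSC. The ratio of the group means was 2.77, and libraries of a group agreed to within 1.05-fold. Its log2 fold change was 1.39 ± 0.74 (SE) with a limma adjusted p of 0.820. The error is that of genes of this level, since limma draws each gene's variance towards the trend, and without trend and robust shrinkage Zbp1 was the 1 member with an unadjusted p under 0.05. Ifih1, which encodes the long double-stranded RNA sensor MDA5, stood at 165 and 186 CPM in LT-HSC and 124 and 87.7 CPM in ST-HSC, without overlap, with a log2 fold change of 0.75 ± 0.31 (SE). Ddx58, which encodes RIG-I, stood at 162 and 218 CPM in LT-HSC and 103 and 238 CPM in ST-HSC, and overlapped because ST-HSC 2 was the highest library. Dhx58, which encodes the related regulator LGP2, held 231 and 897 reads in LT-HSC and 1 and 367 reads in ST-HSC. The single read in ST-HSC 1 makes its log2 fold change of 2.63 ± 1.78 (SE) the least certain of all members, and it was 0.34 without that library and 4.93 without ST-HSC 2. Trim25, a ubiquitin ligase of the RIG-I pathway, stood at 192 and 71.0 CPM in LT-HSC and 149 and 80.3 CPM in ST-HSC. Eif2ak2, the kinase PKR that halts translation on double-stranded RNA, stood at 136 and 44.3 CPM in LT-HSC and 82.4 and 76.9 CPM in ST-HSC. In both, LT-HSC 1 was the highest and LT-HSC 2 the lowest library, and the log2 fold changes were 0.09 and -0.03.

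**Figure D3:**
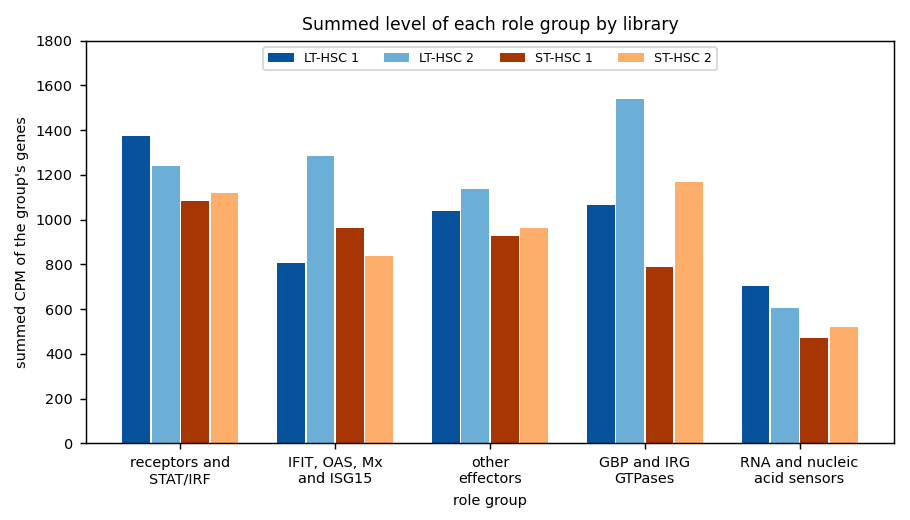
Summed CPM of the genes of each role group in the 4 libraries, as bars from 0. Both LT-HSC bars are above both ST-HSC bars for the receptors and STAT/IRF genes, the other effectors and the sensors, while LT-HSC 1 is the lowest library for the IFIT, OAS, Mx and ISG15 effectors (808 CPM).

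Summed by role, the groups gave different pictures. Receptors and STAT/IRF genes summed to 1373 and 1238 CPM in LT-HSC and 1082 and 1118 CPM in ST-HSC, and the sensors to 705 and 606 CPM in LT-HSC and 469.6 and 519 CPM in ST-HSC. The other effectors summed to 1038 and 1138 CPM in LT-HSC and 928 and 962 CPM in ST-HSC. In these 3 sums the groups did not overlap. Gene by gene, 6 of the 8 receptor and STAT/IRF genes, 7 of the 10 tested other effectors and 4 of the 6 sensors overlapped. Of all 12569 tested genes 8334 overlapped, so these counts do not set the members apart. The IFIT, OAS, Mx and ISG15 effectors summed to 808 and 1287 CPM in LT-HSC and 961 and 839 CPM in ST-HSC, and the GBP and IRG genes to 1068 and 1540.2 CPM in LT-HSC and 788 and 1170.5 CPM in ST-HSC. Both of these overlapped, since LT-HSC 1 fell below an ST-HSC library. LT-HSC 2 was the highest library for 19 of the 43 tested members, LT-HSC 1 for 13, ST-HSC 2 for 8 and ST-HSC 1 for 3. Over all tested genes these libraries were highest for 23.1%, 30.3%, 24.0% and 22.6%.

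Like most tested genes, most members differed at least as much between libraries of 1 group as between groups. The difference between group means was larger than both differences within groups for 10 of the 43 members (23.3%), and for 21.8% of all tested genes. The 10 were Zbp1, Ifih1, Oasl1, Oas1a, Iigp1, Igtp, Ifi44, Parp9, Irf1 and Irf9. All are among the 12 members already counted with both LT-HSC values above both ST-HSC values, so their direction adds nothing to that count.

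**Figure D4:**
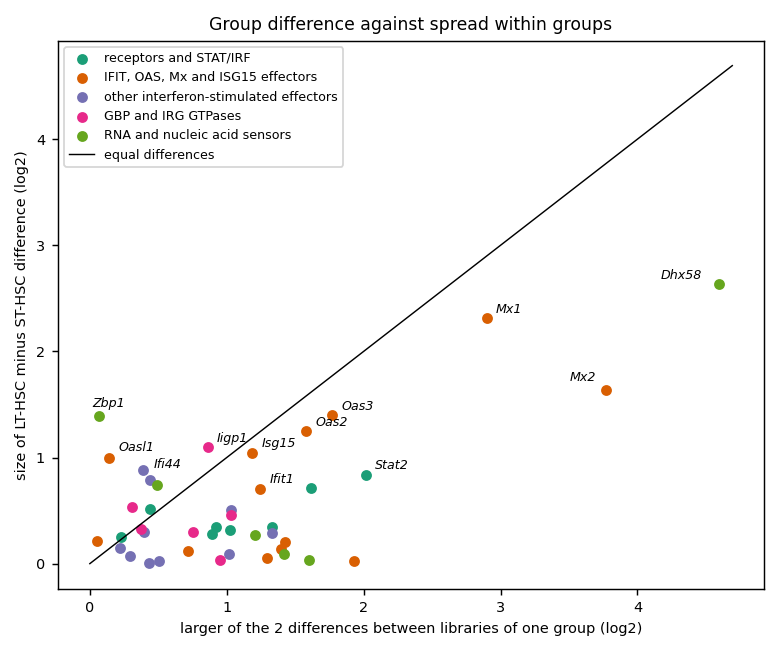
Size of the difference between group means (y axis, log2) against the larger of the differences between libraries of 1 group (x axis, log2) for the 43 tested members, coloured by role. Points above the line differ more between than within groups. Zbp1 and Oasl1 stand well above it, and Dhx58, Mx2 and Stat2 far below.

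The spread within groups was smaller the more reads a gene held per base of exon. Among tested genes with under 0.2 reads per base, the median difference between libraries was 1.18 in LT-HSC and 1.01 in ST-HSC on the log2 scale. For genes with at least 1.5 reads per base it was 0.29 and 0.15. The members spanned this range, with 9 under 0.2 and 4 at 1.5 or more, namely Irgm1, Igtp, Ifi35 and Ifitm3. Ifitm3 held 1049 and 1054 reads in LT-HSC and 1054 and 1006 reads in ST-HSC over 678 bases of exon, nearly the same number in every library whatever its depth. Whether duplicate reads at 1 position were removed is not stated in the labels or processing notes, and the part of read density in the members' values was not tested. Per kilobase of exon the highest members by the mean over libraries were Irgm1, at 108 to 203 CPM over the 4 libraries, and Igtp, at 118 to 199.6 CPM, and their ranges overlapped. Next were Ifi35, Ifitm3 and Irf9, at 99.8 to 135, 96.2 to 118 and 81.5 to 111 CPM, which overlapped each other and the range of Irgm1. The lowest mean over the 4 libraries among tested members was that of Mx2, at 0.158 to 7.36 CPM, a range that overlapped that of Mx1, at 0.657 to 23.8 CPM.

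**Figure D5:**
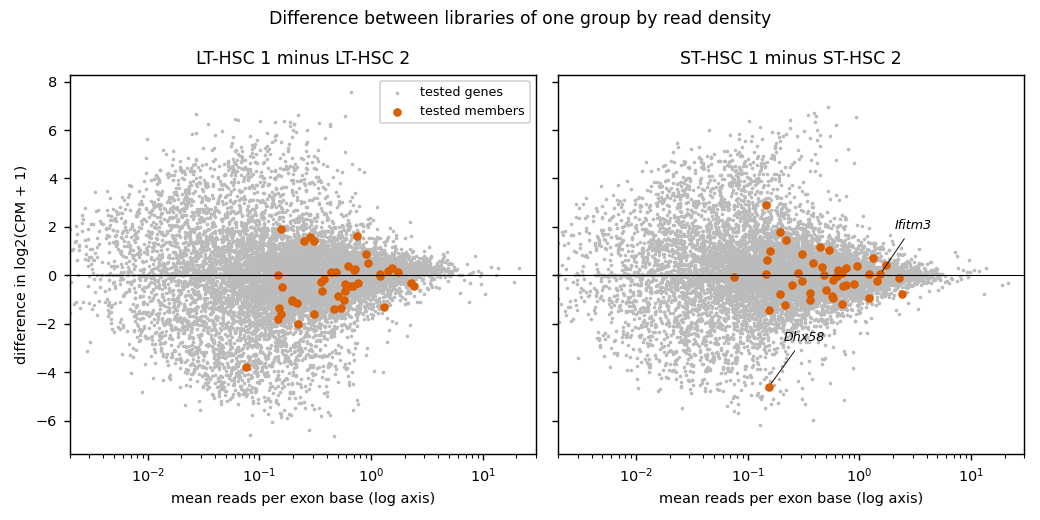
Difference in log2(CPM + 1) between the libraries of 1 group (left LT-HSC, right ST-HSC) against mean reads per exon base on a log axis, for tested genes (grey) and tested members (orange). The cloud narrows to the right, where Ifitm3 lies near 0, and Dhx58 lies low on the right panel because ST-HSC 1 held 1 read.

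Other genes of the pathway, from a list of 86 symbols of which 76 were matched and 68 tested, leaned less to 1 side. By limma 0 were called in either direction and 4 (5.88%) had an unadjusted p under 0.05, against 6.48% of all tested genes. Their log2 fold changes were above 0 in 43 (63.2%, against 49.2% of all tested genes) and below 0 in 25. The median was 0.08, and whether this differs from the members was not tested. Both LT-HSC libraries were above both ST-HSC libraries for 18 (26.5%, against 16.2% of all tested genes) and below both for 12 (17.6%, against 17.5%). Uba7, Pml and Gbp4 were among the genes with an unadjusted p under 0.05, with the higher values in LT-HSC and limma adjusted p of 0.716, 0.716 and 0.746. Uba7, the E1 enzyme that loads ISG15, stood at 195 and 216 CPM in LT-HSC and 110.4 and 108 CPM in ST-HSC, with a log2 fold change of 0.91 ± 0.26 (SE). Pml, the scaffold of nuclear bodies, stood at 687 and 676 CPM in LT-HSC and 502 and 484 CPM in ST-HSC, with 0.47 ± 0.14 (SE). Gbp4 stood at 64.5 and 56.4 CPM in LT-HSC and 18.5 and 6.13 CPM in ST-HSC, with 2.38 ± 0.78 (SE). Its neighbour Gbp5, also among the 5 of smallest p that were higher in LT-HSC, stood at 29.5 and 24.4 CPM in LT-HSC and 6.78 and 5.12 CPM in ST-HSC. The 5 of smallest p among the lower genes were Socs3, Tlr3, Nlrc5, Tbk1 and Ifi30. Socs3, a feedback inhibitor of JAK signalling, held 1 and 0 reads in LT-HSC and 42 and 109 reads in ST-HSC. Tlr3, the endosomal double-stranded RNA receptor, held 0 and 1 reads in LT-HSC and 39 and 432 reads in ST-HSC. Nlrc5, the activator of MHC class I genes, stood at 128 and 121 CPM in LT-HSC and 277 and 155 CPM in ST-HSC. Tbk1, the kinase that activates IRF3, stood at 40.5 and 34.5 CPM in LT-HSC and 56.7 and 78.8 CPM in ST-HSC. Ifi30, a lysosomal thiol reductase, stood at 4.59 and 1.61 CPM in LT-HSC and 29.8 and 7.08 CPM in ST-HSC.

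The kinases Jak1 and Jak2 and the factor Stat3 overlapped between the groups. Jak1, which serves both receptors, stood at 227 and 305 CPM in LT-HSC and 143 and 253 CPM in ST-HSC. Jak2, which serves the interferon gamma receptor, stood at 68.8 and 87.7 CPM in LT-HSC and 98.4 and 74.3 CPM in ST-HSC. Stat3, which other cytokines use as well, stood at 117 and 399 CPM in LT-HSC and 209 and 216 CPM in ST-HSC, where LT-HSC 2 was highest and LT-HSC 1 lowest. Tyk2 was not analysed here. The interferon genes Ifnb1, Ifna4 and Ifng were listed at 0 reads in all 4 libraries, as was Irf2bp2, a cofactor gene used in many cells.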

How the data were processed

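RNA of 2 LT-HSC and 2 ST-HSC libraries was amplified with the SMARTer kit, per the labels' protocols. TopHat, with no version, and the genome build mm9 are named in the submitters' processing notes. The read counter, annotation and treatment of duplicate or shared reads are not stated there or in the labels. The values deposited by the authors are on a log2 scale. Their low steps equal whole reads per library total, so each was read as log2 of the CPM of the reads plus 1, and CPM were computed without the 1. A minimum of 1 read would give the same steps, and genes with reads would then have 1 more. All values of up to 100 reads came within 0.1 of a whole number.

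Genes reaching 1 CPM in 2 or more libraries were tested as log2(CPM + 1) with limma 3.58.1 (trend and robust shrinkage, statmod 1.5.0, R 4.3.3), two-sided, with Benjamini-Hochberg adjustment over all 12569 genes and a threshold of 0.05. The test planned for raw counts was not used, because the values are logarithms. This scale understates the change of low genes. Members and lists were chosen with earlier results of these data known. All members are named by rule, and of the other pathway genes the Janus kinases, STATs and up to 5 per direction of smallest p, of which some genes are not reported here. Oas1g, Ifitm2, Ifnb1, Ifna4, Ifng and Irf2bp2 were named after their values were seen. Exon lengths are unions over the GENCODE vM21 basic set (GRCm38), matched by symbol for 20783 of 23450 genes, and promoter windows are RefSeq's (GRCm38.p6). The alternatives covered the added value, filter, scaling, model, libraries left out and the replicate number as a block.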

Additional observations from a re-analysis of the deposited data

How the results depend on the processing

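With 14 alternatives to the processing, no setting brought any gene past the adjusted threshold. The members' median log2 fold change stayed above 0 under all 14. It was lowest, at 0.22, when LT-HSC 2 was left out and highest, at 0.48, when LT-HSC 1 was. With 1 library left out the lone library of a group is assumed to vary like the others. Of the 43 tested members, 19 kept the sign of their log2 fold change under every setting. Counts of sign changes were not made over all tested genes, so they do not set the members apart. The sign changed in 24 members when 1 library was left out, with ranges of -0.32 to 1.01 for Ifnar1, -0.73 to 0.16 for Ifnar2, -0.12 to 0.81 for Ifngr1, -0.20 to 0.83 for Ifngr2, -1.85 to 0.17 for Stat2, -0.099 to 1.52 for Irf7, -0.99 to 0.94 for Ifit2 and -0.51 to 0.91 for Ifit3. Further ranges were -0.48 to 0.23 for Usp18, -3.52 to 0.25 for Mx2, -0.70 to 0.60 for Oasl2, -0.84 to 0.56 for Rsad2, -0.21 to 0.22 for Ifi35, -0.0055 to 1.02 for Ifi204, -0.078 to 0.22 for Ifitm3 and -0.22 to 0.28 for Bst2, and then -0.38 to 0.95 for Parp14, -0.60 to 0.42 for Samd9l, -0.059 to 0.98 for Gbp3, -0.076 to 0.68 for Irgm1, -0.44 to 0.51 for Irgm2, -0.34 to 0.87 for Ddx58, -0.62 to 0.80 for Trim25 and -0.83 to 0.77 for Eif2ak2. Among the other pathway genes named, the ranges were -0.34 to 0.064 for Jak2 and -0.85 to 0.91 for Stat3. Apart from libraries left out, the sign changed only under limma-voom, for Oasl2 (0.012) and Bst2 (-0.0027), and the cause of these changes was not tested. The count of members with an unadjusted p under 0.05, 3 at first, was 1 without trend and robust shrinkage, 5 by limma-voom and 1 without ST-HSC 2, and the count of lower genes at that p, 453, was 822 without LT-HSC 2, 151 without ST-HSC 1 and 149 without ST-HSC 2. With the replicate number as a block, 0 genes passed, 878 had an unadjusted p under 0.05 and the members' median was 0.29. Same-numbered libraries shared little, with a correlation of 0.052 between their deviations over 12569 genes. A low correlation cannot show whether the numbers mark a shared animal or day, and the labels do not state it. The low number of libraries, and reads near the floor for Dhx58, Mx2 and Ifi203, limit the precision.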
